A study of Homo sapiens with 16 samples.

Results

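MITF is the basic helix-loop-helix leucine-zipper factor that specifies the melanocyte lineage, and in melanoma it drives pigmentation, lysosome and survival genes. It binds E-boxes, short palindromic motifs that its relatives TFEB and TFE3 also read. The sites described here are those that MITF occupied both with and without TGFB1 and that lie away from the ends of protein-coding genes, where enhancers and unannotated or internal promoters are found. TGFB1 signals through the receptor-activated factors SMAD2 and SMAD3, which bind chromatin together with other factors. JUNB, a subunit of AP-1, and ATF3, a related basic leucine-zipper factor induced by stress, are among the factors that meet SMADs at enhancers. Acetylation of histone H3 at lysine 27 (H3K27ac) marks active promoters and enhancers.

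All libraries came from A375, a human malignant melanoma line, by chromatin immunoprecipitation and sequencing (ChIP-seq). The cells were starved for 2 h and then kept for 2 h with recombinant human TGFB1 at 10 ng/mL or with vehicle alone, which was BSA (1 mg/mL) in HCl (4 mM). Each of 5 antibodies (MITF, H3K27ac, SMAD2/3, ATF3, JUNB) has 1 library with TGFB1 and 1 with vehicle, so nothing here was tested and no p-value is given; the design text speaks of technical repeats, but these lists hold 1 library each. The 6 inputs of the series were not analysed here. The sample titles carry 3 dates, and what they mark is not stated. The H3K27ac and SMAD2/3 libraries share the earliest, the MITF pair has its own, and the ATF3 and JUNB libraries share the latest. Overlaps between antibodies of different dates thus cross these dates. In bulk chromatin, a site bound in fewer cells and a site bound less in each cell cannot be told apart.

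The MITF TGFB1 list holds 5037 peaks, of which 4968 lay on chromosomes 1 to 22 and X after identical intervals were counted once. A peak of the MITF vehicle list (5695 peaks) overlapped 2676 of them by at least 1 bp. The summit, the highest point of the peak, was more than 1 kb from every end of a protein-coding gene at 1635 of the 2676, and these 1635 sites are the members. They were thus chosen by their MITF peak calls in both lists and by position. The other 1041 are the constant sites at gene ends. For comparison, 1505 TGFB1-only and 1923 vehicle-only MITF sites also lay away from gene ends. The nearest members above the 1 kb limit had their summits 1006 bp from an end of CYP1A1 and 1022 bp from an end of VAT1. The nearest shared sites below it were 977 bp from ZNF367 and 974 bp from CTNNA3.

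The distance rule used protein-coding genes alone. Of the 1635 members, 754 (46.1%, 95% Wilson interval 43.7 to 48.5) had the summit inside a protein-coding gene, 175 outside a gene but within 10 kb of one, 440 between 10 and 100 kb, and 266 had no such gene within 100 kb. A non-coding gene of the RefSeq table ended within 1 kb of 337 members (20.6%), and 1402 members lay more than 1 kb from every start of the RefSeq promoter table as well. The Wilson intervals here and below cover counting error only. In the H3K27ac lists, 9 of 12 melanocyte lineage markers had a peak within 1 kb of a gene end with TGFB1 and 8 of 12 with vehicle. TYR, DCT and GPR143 had none in either treatment, and 3 of 12 genes of other cell types (CD3E, KRT14 and GFAP) had one in each.

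Sequence could be read only where a summit fell in a RefSeq promoter window (GRCh38.p14, 250 bases before to 50 after a start). This held for 91 members in 103 windows, and 63 of the 91 were in the window of a protein-coding gene, at a start inside the gene's outer ends. These windows are shown because they carry the motif counts that follow. The first 6 are the windows of highest -log10 p whose E-box, CACGTG, lay within 50 bp of the summit, with the motif in capitals. SLC36A1 (a lysosomal amino acid transporter) at chr5:151447533-151447592 on the plus strand, FNDC3A at chr13:49110218-49110277 (plus), KDM4C (a histone lysine demethylase) at chr9:6757915-6757974 (plus), the lncRNA LOC124904068 within TIMP2 at chr17:78862142-78862201 (plus), UQCC6 (an assembly factor of mitochondrial complex III) at chr12:103957240-103957299 (minus) and CLUAP1 (a ciliary transport protein) at chr16:3500887-3500946 (plus) read, 5′ to 3′:
SLC36A1: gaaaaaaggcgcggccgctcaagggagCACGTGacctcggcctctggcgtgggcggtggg
FNDC3A: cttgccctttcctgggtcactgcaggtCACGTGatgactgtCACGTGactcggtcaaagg
KDM4C: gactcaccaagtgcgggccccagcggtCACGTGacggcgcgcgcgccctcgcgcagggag
LOC124904068: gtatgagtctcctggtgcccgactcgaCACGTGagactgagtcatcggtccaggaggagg
UQCC6: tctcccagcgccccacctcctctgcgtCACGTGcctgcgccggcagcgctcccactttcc
CLUAP1: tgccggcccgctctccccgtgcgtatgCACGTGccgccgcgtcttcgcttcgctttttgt

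The E-box stood 16.5 bp from the MITF summit in the SLC36A1 window, 7.5 bp in those of FNDC3A and KDM4C, 2.5 bp in that of LOC124904068, 43.5 bp in that of UQCC6 and 30.5 bp in that of CLUAP1. The fold enrichment of MITF, the caller's ratio of reads at the summit to the local background, was 9.93 at SLC36A1, 12.4 at FNDC3A and 8.90 at KDM4C in the TGFB1 list. The FNDC3A stretch holds a pair of E-boxes, each inside the longer palindrome TCACGTGA.

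CACGTG was found in 37 of the 103 windows with a member summit (35.9%, 95% Wilson interval 27.3 to 45.5), against 7.27% of all 34961 promoter windows on these chromosomes. The constant sites at gene ends had it in 291 of 736 windows (39.5%, 36.1 to 43.1), the TGFB1-only sites in 15 of 57 (26.3%) and the vehicle-only sites in 15 of 62 (24.2%). The longer TCACGTGA, each match of which contains a CACGTG, stood in 19 of the members' windows (18.4%, with a lower bound of 12.1%) and in 0.981% of all windows. In the TGFB1-only sites it stood in 2 of 57 windows (3.51%, with an upper bound of 11.9%) and in the vehicle-only sites in 4 of 62. The members' windows thus held E-boxes at a share near that of the gene-end sites, and the TCACGTGA interval of the members lay above that of the TGFB1-only sites but overlapped that of the vehicle-only sites (2.54 to 15.4).

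The core of the M-box, CATGTG, was in 8 of the members' 103 windows (7.77%, 3.99 to 14.6), an interval that includes the 11.1% of all windows, and in 18 of 57 windows of the TGFB1-only sites (31.6%). TCACATGA was in 3 windows of members (2.91%), against 0.993% of all. The AP-1 motif TGANTCA was in 12 (11.7%, 6.79 to 19.3), against 7.68%, which lies inside that interval, and TGACGTCA, which ATF3 can bind, in 1, against 1.85%. All motifs were searched on both strands. By members rather than windows, the summit lay within 50 bp of the nearest CACGTG at 22 of the 33 that had one, with a median of 24.5 bp.

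A second motif was noticed after the sequences had been read. Among the strongest members, several windows held a bipartite motif, ACTAC and TCCC separated by any 3 bases. It was in 25 of the 103 windows (24.3%, 17.0 to 33.4), in 244 of 736 windows of the gene-end sites (33.2%) and in 2.25% of all windows. The TGFB1-only sites had it in 7 of 57 windows (12.3%, 6.08 to 23.2) and the vehicle-only sites in 7 of 62 (11.3%, 5.58 to 21.5). Both intervals overlap that of the members. The motif was picked from the members' own windows, so its share there is only a description. Of the 91 members with a summit in a window, 33 had CACGTG, 23 had the bipartite motif, 2 had both and 37 had neither. Its median distance to the summit was 21.5 bp at the 23 members. The 4 windows shown, with the match on either strand in capitals, are those of highest -log10 p among windows with the motif within 50 bp of the summit: TCEA2 (a transcription elongation factor) at chr20:64063012-64063077 (plus), THRAP3 (an RNA-processing factor) at chr1:36224285-36224350 (plus), RANGAP1 (the activator of the Ran GTPase at nuclear pores) at chr22:41286322-41286387 (minus) and AHCY (the hydrolase of S-adenosylhomocysteine) at chr20:34303007-34303072 (minus).
TCEA2: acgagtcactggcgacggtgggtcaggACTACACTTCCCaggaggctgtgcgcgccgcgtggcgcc
THRAP3: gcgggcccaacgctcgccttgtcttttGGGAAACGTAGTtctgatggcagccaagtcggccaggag
RANGAP1: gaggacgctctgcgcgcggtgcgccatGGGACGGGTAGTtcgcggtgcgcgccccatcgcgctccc
AHCY: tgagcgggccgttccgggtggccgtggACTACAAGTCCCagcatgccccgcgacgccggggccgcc

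Fold enrichment with TGFB1 was 22.7 at TCEA2, 19.2 at THRAP3, 19.1 at RANGAP1 and 13.5 at AHCY. Over the members with each motif, the median fold enrichment was 7.83 with CACGTG, 8.13 with the bipartite motif and 7.99 with neither. The highest values were 19.2, 22.7 and 67.0. The member of highest fold enrichment in the whole group is one with neither motif in its window. It lies at the start of the lncRNA LOC101929003, and the stretch around its summit, chr5:1793005-1793065 (plus), is printed because neither motif is in its window.
LOC101929003: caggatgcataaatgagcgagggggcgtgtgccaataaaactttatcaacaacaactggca

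**Figure D1:**
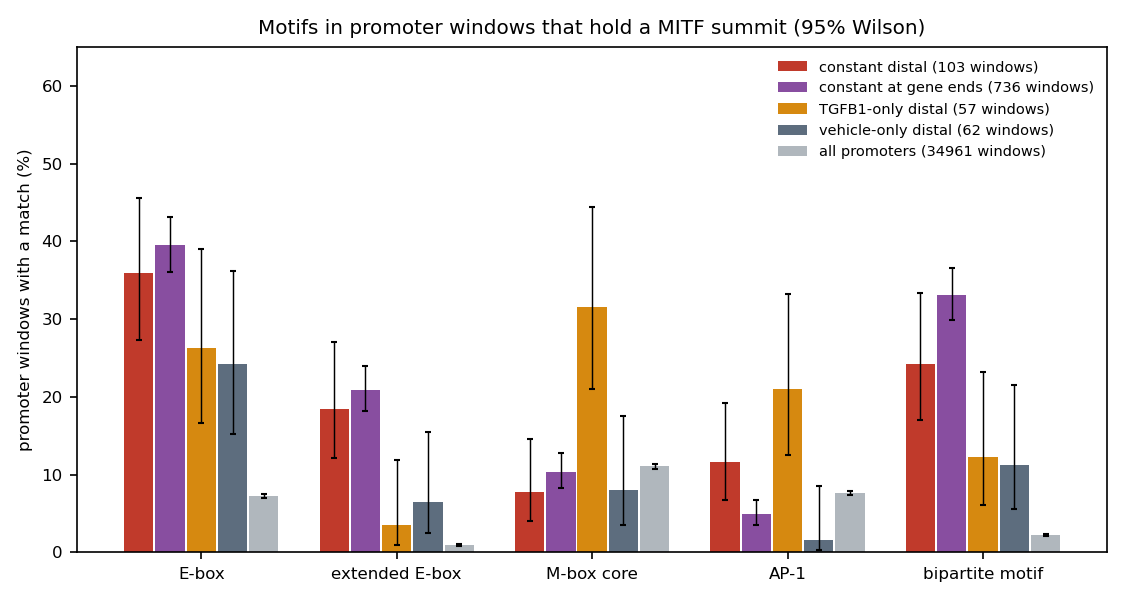
Share of RefSeq promoter windows with a match to each motif (percent, y axis), for windows that hold a MITF summit of each class and for all windows, with 95% Wilson intervals. The E-box bar of the constant distal sites stands at 35.9% against 7.27% of all promoters, and the bar of the bipartite motif at 24.3% against 2.25%.

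MITF signal at the members is what chose them, so it is described and not compared. Fold enrichment ranged in the TGFB1 list from 1.27 through a median of 8.04 to 67.0, and in the vehicle list, at the overlapping peak, from 1.81 through 8.25 to 110.0. The number of fragments over each summit was recovered from the deposited values, and the implied depth of the pair was close, at 7.40 M (10 to the power 6) reads with TGFB1 and 7.39 M with vehicle. The median was 17 fragments with TGFB1 and 17 with vehicle. The ratio of the fragment counts, each plus 1, had a median of 1.00, with a 5th percentile of 0.619 and a 95th of 1.68. The summits of both lists lay a median of 24 bp apart and at most 50 bp apart at 1269 members (77.6%). A reciprocal overlap of at least 50% held for 1487.

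The strongest members by -log10 p are of several kinds. The ribosomal RNA gene RNA45SN1 at chr21:8432306-8435613 had 232 fragments at the summit with TGFB1 and 261 with vehicle. The site 5.35 kb from MRPL36 (a mitochondrial ribosomal protein), at chr5:1792870-1793318 and the start of LOC101929003, had 122 and 136. A site inside ZBTB40 at chr1:22451685-22452288 had 169 with TGFB1 and 178 with vehicle, although its fold enrichment was 34.9 in the TGFB1 list and 110.0 in the vehicle list. Fold enrichment also depends on the background of each library, and here the fragment counts of the pair lay closer together than the folds.

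Next in order were a site 9.11 kb from TRIML1 at chr4:188159567-188160125 with 147 fragments with TGFB1 and 141 with vehicle, and one 22.6 kb from FRG2 at chr4:190049564-190050078 with 143 in each. A site with no protein-coding gene within 100 kb, chr10:131635599-131635951, had 90 with TGFB1 and 68 with vehicle. EDDM13 at chr19:56294475-56294813 had 83 and 79. The others among the 12 were 3 more sites in the ribosomal DNA of chromosome 21 and a pair of sites 74.99 and 72.95 kb from LOC102724560, also on chromosome 21.

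**Figure D2:**
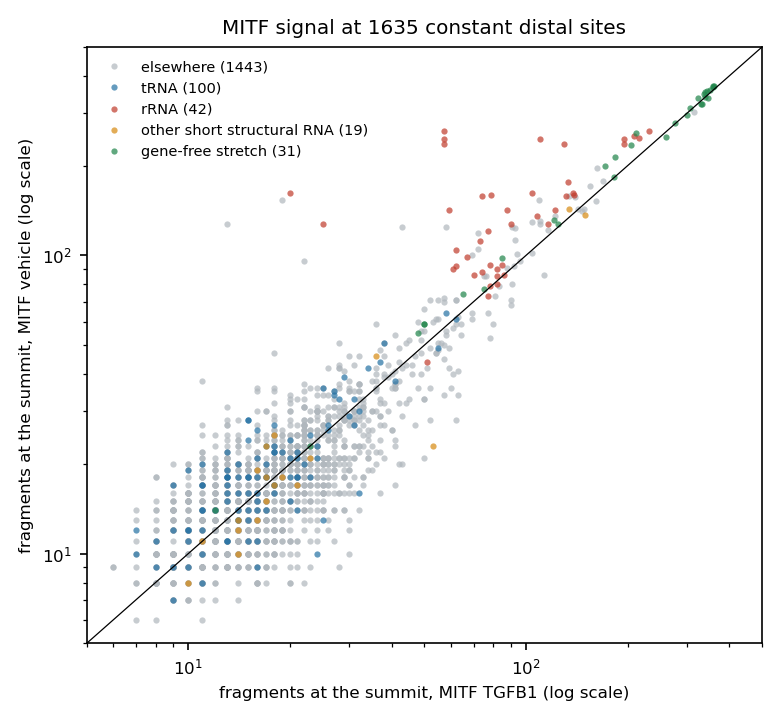
Fragments over the MITF summit at each of the 1635 members with TGFB1 (x axis, log scale) and with vehicle (y axis, log scale); the line marks equal counts. Most points lie near the line around the median of 17 in each library, and most of the 42 sites at rRNA genes lie above it, toward vehicle. At the rRNA sites the vehicle peaks were wider, and the summits of a pair could lie far apart.

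A share of the members sits at genes for structural RNAs, such as tRNA genes, which RNA polymerase III transcribes, and the 45S rRNA genes, which RNA polymerase I transcribes. This grouping was made after the values were seen. A tRNA gene overlapped 100 members (6.12%, 5.05 to 7.38), a ribosomal RNA gene 42 (2.57%), and another short structural RNA gene 19 (1.16%), such as RN7SL1 and RN7SL2 (the RNA of the signal recognition particle) and SNORD3A (the U3 nucleolar RNA). Sites at tRNA genes made up 2.88% of the constant gene-end sites, 0.731% of the TGFB1-only sites, 2.29% of the vehicle-only sites and 2.94% of all MITF TGFB1 peaks. The Wilson interval of the members lay above those of the other 3 classes. Counted by gene, 111 of 443 tRNA genes (25.1%) held a member, while 160 held a MITF peak of the TGFB1 list and 202 of the vehicle list.

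The site at TRE-CTC1-3 (chr1:161454374-161454955, a tRNA for glutamate) had 62 fragments with TGFB1 and 61 with vehicle, and the one at TRL-CAG2-2 (chr16:57300359-57300670, a tRNA for leucine) had 32 and 16. RN7SL2 (chr14:49862550-49862847) had 150 with TGFB1 and 137 with vehicle, and RN7SL1 (chr14:49586589-49586860) 134 and 143. Over the 42 rRNA sites the median was 82 fragments with TGFB1 and 139 with vehicle, with a median ratio of 0.796. At the 100 tRNA sites the medians were 16 and 18. These genes exist in near-identical copies, and how reads that fit several copies were treated is not given in the sources used here, so which copy a peak belongs to is uncertain. The peaks at rRNA genes had a median width of 588 bp with TGFB1 and 2463 bp with vehicle, and their summits in the 2 lists lay up to 3472 bp apart. A wide vehicle peak can also be the partner of several members. The counts of a pair were thus not always read at the same position, and a change at the same rRNA site was not tested.

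A further 31 members fell in the longest stretch without any gene of their chromosome. Their fold enrichment was low, with a median of 1.70 with TGFB1 and 2.37 with vehicle, at medians of 259 and 258 fragments over a high background. Sites at structural RNA genes, in these stretches and in the chromosome 21 span between the outermost rRNA genes (chr21:8205988-8446572) were set aside in what follows wherever "the remaining 1434 members" is written; 201 were set aside.

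The other antibodies meet these places too. At the 42 rRNA sites a peak of the SMAD2/3 library overlapped 41 with TGFB1 and 19 with vehicle. For ATF3 the counts were 41 with TGFB1 and 42 with vehicle, and for JUNB 36 in each. At the 100 tRNA sites H3K27ac overlapped 61 with TGFB1 and 62 with vehicle, SMAD2/3 24 and 9, ATF3 46 and 20, and JUNB 68 and 41. At the 19 other short RNA genes SMAD2/3 overlapped 12 with TGFB1 and 9 with vehicle. Over all 4968 MITF TGFB1 peaks, the background was 25.8% and 3.08% for SMAD2/3, 36.2% and 13.9% for ATF3, 50.2% and 34.2% for JUNB and 68.7% and 67.5% for H3K27ac, each with TGFB1 and then vehicle. The pooled shares of the 42 rRNA sites stood above it in both libraries of SMAD2/3, ATF3 and JUNB. For H3K27ac the pooled shares stood below it, at 14 of 42 with TGFB1 and 16 with vehicle. This hides a split by chromosome, as 16 of the rRNA sites lay on chromosome 1 and 26 on chromosome 21. H3K27ac with TGFB1 overlapped 13 of the 16 on chromosome 1, which thus did not stand below the background of 68.7%. The low pooled share with TGFB1 came from chromosome 21, and the vehicle library was not split by chromosome.

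**Figure D3:**
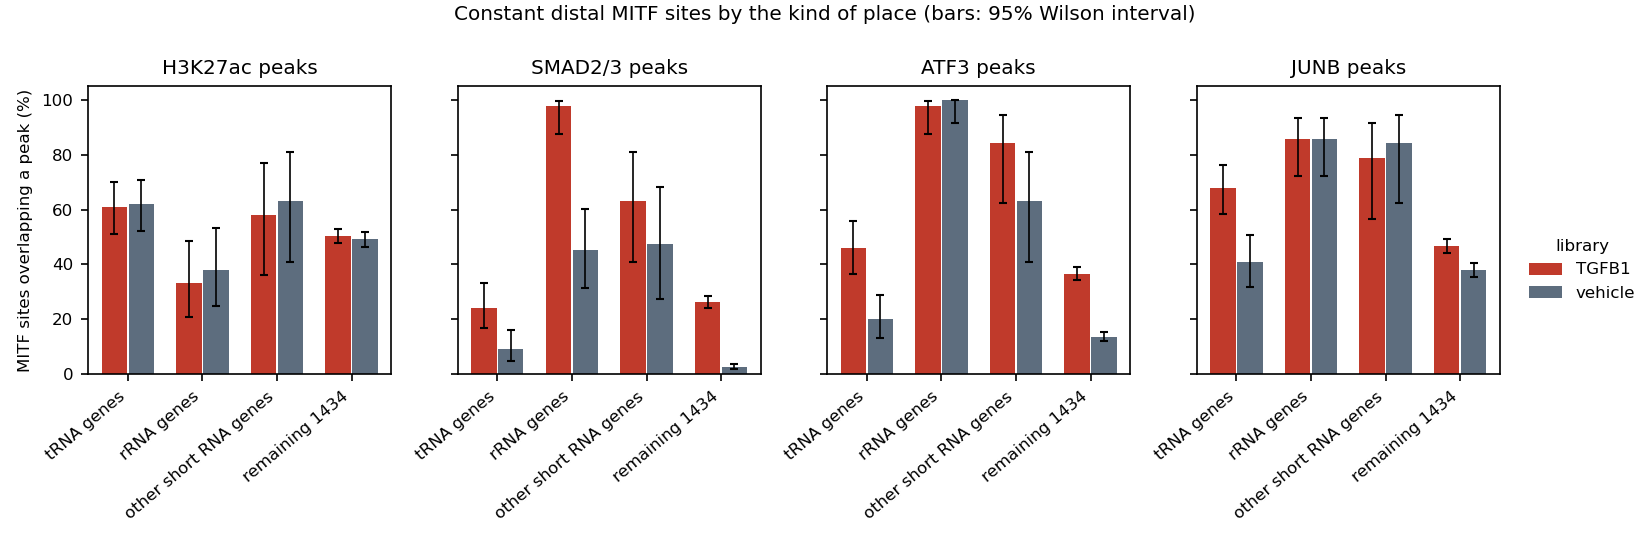
Share of constant distal MITF sites that overlap a peak of each antibody (percent, y axis) at tRNA genes (100), rRNA genes (42), other short RNA genes (19) and for the remaining 1434 members, with TGFB1 libraries left of vehicle and 95% Wilson intervals. SMAD2/3 with vehicle overlapped 19 of 42 rRNA sites and 39 of the remaining 1434.

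Acetylation divided the members into nearly equal groups. An H3K27ac peak overlapped 810 of 1635 members with TGFB1 (49.5%, 47.1 to 52.0), against 68.7% of all MITF TGFB1 peaks, and 794 with vehicle (48.6%, 46.1 to 51.0), against 67.5%. At gene ends the constant sites were overlapped at 94.3% with TGFB1 and 93.9% with vehicle. The TGFB1-only sites away from gene ends were overlapped at 58.0% and 55.5%, and the vehicle-only ones at 38.8% and 39.3%. Without the RNA genes, the gene-free stretches and the rRNA span, the vehicle-only sites stood at 49.1% with TGFB1 and 49.7% with vehicle, and the remaining 1434 members at 50.5% and 49.1%. Of all vehicle-only sites, 392 lay in gene-free stretches and 44 at tRNA genes; the part of each in the lower share was not tested.

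Site by site, 749 members carried H3K27ac in both treatments, 61 with TGFB1 alone, 45 with vehicle alone and 780 in neither. EGFR (a receptor tyrosine kinase that marks dedifferentiated melanoma) and TNC (the matrix protein tenascin C) each held a member that an H3K27ac peak overlapped in the TGFB1 list alone, with a fold enrichment of 4.87 at chr7:55129844-55130110 and 22.4 at chr9:115107189-115107445. An H3K27ac summit of the vehicle list nonetheless lay 454 bp from the EGFR site's MITF summit and 651 bp from that of TNC. Among the remaining 1434 members, SMAD2/3 with TGFB1 overlapped 16 of the 57 acetylated with TGFB1 alone (28.1%, 18.1 to 40.8) and 9 of the 37 acetylated with vehicle alone (24.3%, 13.4 to 40.1).

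**Figure D4:**
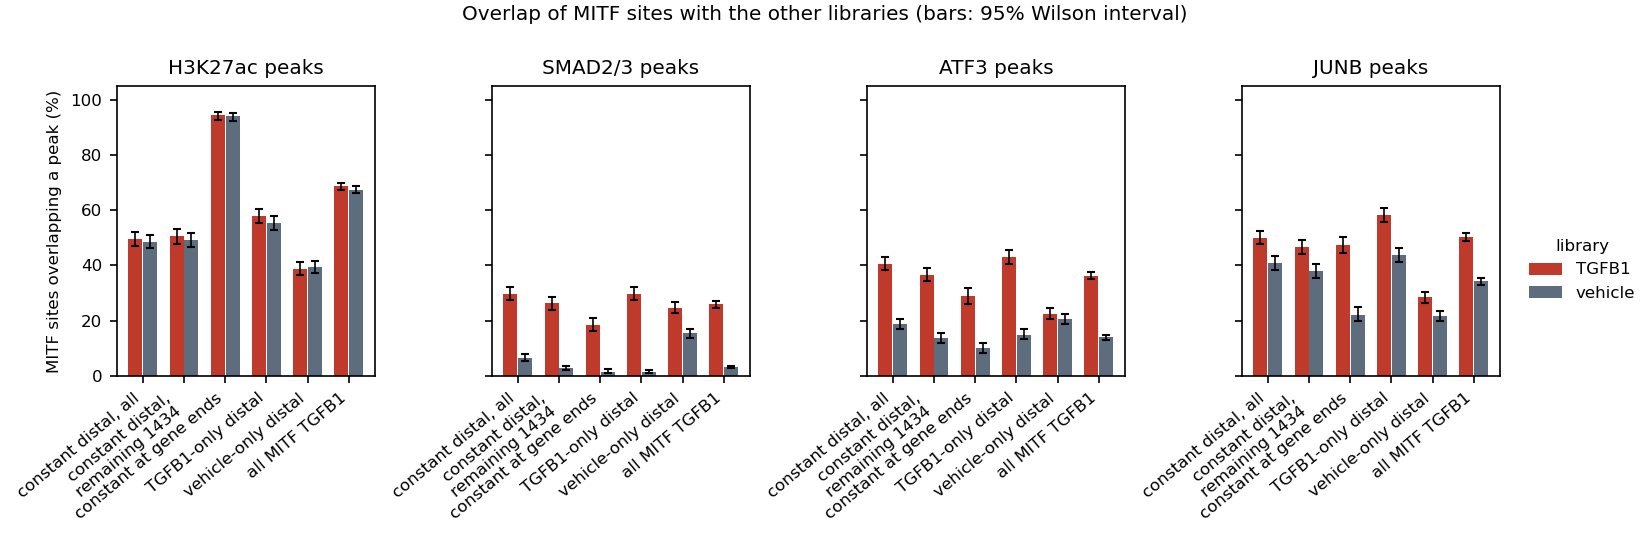
Share of MITF sites overlapping a peak of H3K27ac, SMAD2/3, ATF3 and JUNB (percent, y axis) in 6 sets of sites, with the TGFB1 library left of the vehicle library and 95% Wilson intervals. Constant distal sites are acetylated at 49.5% with TGFB1 and 48.6% with vehicle, against 94.3% and 93.9% of the constant sites at gene ends.

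SMAD2/3, the arm of the pathway that TGFB1 activates directly, overlapped 487 members with TGFB1 (29.8%, 27.6 to 32.0), against 25.8% of all MITF TGFB1 peaks, and 106 with vehicle (6.48%, 5.39 to 7.78), against 3.08%. Of the 106 with vehicle, 67 were among the members set aside. The remaining 1434 members overlapped SMAD2/3 at 26.2% (24.0 to 28.6) with TGFB1 and 2.72% (2.00 to 3.70) with vehicle, close to the background in both. Constant sites at gene ends stood at 18.5% with TGFB1 and 1.54% with vehicle, and TGFB1-only sites away from gene ends at 29.8% and 1.33%. The SMAD2/3 lists hold 11406 peaks with TGFB1 and 1247 with vehicle, so more overlap at MITF sites goes with more peaks over the whole genome.

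The strongest of the remaining members with SMAD2/3 were chosen after the rRNA sites were set aside. They were the sites near TRIML1, at chr10:131635599-131635951, in EDDM13, 40.3 kb from ANKRD10 (chr13:110955163-110955556) and 98.4 kb from DAP (chr5:10859425-10859755). The SMAD2/3 fold enrichment there with TGFB1 was 10.4, 17.1, 7.73, 4.39 and 10.9, and none of the 5 overlapped a SMAD2/3 peak with vehicle. At the last of these sites, the nearest SMAD2/3 summit with TGFB1 lay 398 bp from the MITF summit. AXL (a receptor tyrosine kinase of dedifferentiated melanoma) held a member at chr19:41226228-41226422 with a SMAD2/3 fold enrichment of 43.9 with TGFB1 and 4.60 with vehicle. CD44 (the hyaluronan receptor) held one at chr11:35166758-35167054 with 54.3 with TGFB1 and 6.50 with vehicle. MITF had 18 fragments at AXL with TGFB1 and 13 with vehicle, near the members' median of 17. At CD44 it had 43 with TGFB1 and 20 with vehicle, and the ratio of these counts, each plus 1, lies above the 95th percentile of 1.68 over members. MITF fold enrichment went the other way, at 5.52 with TGFB1 and 6.81 with vehicle at CD44 and 4.52 and 5.93 at AXL. A change of MITF at either site was not tested.

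SMAD2/3 with TGFB1 lay mostly at sites with JUNB and ATF3 and at sites acetylated with vehicle. Of the 376 remaining members with SMAD2/3 in the TGFB1 library, JUNB with TGFB1 overlapped 322 (85.6%, 81.7 to 88.8), against 346 of the 1058 without SMAD2/3 (32.7%, 29.9 to 35.6). ATF3 with TGFB1 overlapped 264 of the 376 (70.2%), against 262 of the 1058 (24.8%). H3K27ac in the vehicle library overlapped 287 of the 376 (76.3%, 71.8 to 80.3), against 417 of the 1058 (39.4%, 36.5 to 42.4). JUNB with vehicle already overlapped 280 of the 376 (74.5%).

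JUNB overlapped 818 members with TGFB1 (50.0%, 47.6 to 52.5), against 50.2% of all MITF TGFB1 peaks, and 668 with vehicle (40.9%, 38.5 to 43.3), against 34.2%. It was in both lists at 628 members, in the TGFB1 list alone at 190 and in the vehicle list alone at 40. The implied depth was 47.7 M reads with TGFB1 and 34.1 M with vehicle, and the lists hold 64407 and 38514 peaks. With both lists held to their 5000 strongest peaks, the direction turned, at 14.2% (12.58 to 15.97) of members with TGFB1 and 15.2% (13.5 to 17.0) with vehicle, with intervals that overlap. At gene ends JUNB overlapped 47.4% of constant sites with TGFB1 and 22.2% with vehicle, so the intervals of the constant distal and the gene-end sites overlapped with TGFB1 (upper bound 50.4% at gene ends) and not with vehicle (upper bound 24.8%). Away from gene ends, TGFB1-only sites stood at 58.2% with TGFB1 and 43.7% (41.2 to 46.2) with vehicle, and vehicle-only sites at 28.4% and 21.6%. With vehicle, the members' interval thus overlapped that of the TGFB1-only sites. The remaining 1434 members stood at 46.6% (44.0 to 49.2) with TGFB1 and 37.9% (35.4 to 40.4) with vehicle. The member near JUNB itself, within HOOK2 at chr19:12782802-12783212, had a JUNB fold enrichment of 35.6 with TGFB1 and 15.1 with vehicle. The one at chr10:131635599-131635951 had 38.5 with TGFB1 and 12.5 with vehicle.

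ATF3 overlapped 663 members with TGFB1 (40.6%, 38.2 to 43.0), against 36.2%, and 307 with vehicle (18.8%, 17.0 to 20.7), against 13.9%. Both lists shared 281 of these members, 382 were in the TGFB1 list alone and 26 in the vehicle list alone. The remaining 1434 members overlapped ATF3 at 36.7% (34.2 to 39.2) with TGFB1 and 13.7% with vehicle, close to the background in both. Constant sites at gene ends stood at 28.8% with TGFB1 and 9.89% with vehicle. Away from gene ends, TGFB1-only sites stood at 42.99% with TGFB1 and 14.95% with vehicle, and vehicle-only sites at 22.5% and 20.6%. The implied depth differed widely here, 28.1 M reads with TGFB1 and 6.37 M with vehicle, so treatment and depth cannot be told apart. With both ATF3 lists held to their 5000 strongest peaks, the direction turned: 8.20% (6.96 to 9.63) of members overlapped with TGFB1 and 10.1% (8.72 to 11.6) with vehicle. The member near SCD (the fatty acid desaturase) at chr10:100374229-100374440 had an ATF3 fold enrichment of 48.3 with TGFB1. No ATF3 vehicle peak overlapped its interval, but an ATF3 summit lay 291 bp from the MITF summit with vehicle, against 260 bp with TGFB1. The one in EGFR had 29.7 with TGFB1 and 21.9 with vehicle.

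Without SMAD2/3 but with JUNB and ATF3 in the TGFB1 libraries, the strongest members were those near MRPL36 and FRG2, the one 74.99 kb from LOC102724560, and those in SDK1 (a neuronal adhesion protein) at chr7:4103806-4104178 and NFIC (a nuclear factor I protein) at chr19:3450695-3451104. SDK1 had 75 MITF fragments with TGFB1 and 85 with vehicle, and its JUNB fold enrichment was 9.66 and 4.78. NFIC had 94 and 101, with JUNB at 9.46 and 6.11. No H3K27ac peak overlapped either site in either treatment. H3K27ac summits nonetheless lay 603 bp (TGFB1) and 491 bp (vehicle) from the NFIC site's MITF summit.

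Among the 761 remaining members with H3K27ac in either treatment, 159 (20.9%) had no peak of SMAD2/3, ATF3 or JUNB, 99 had JUNB alone, 173 had JUNB and ATF3 without SMAD2/3, and 217 (28.5%) had all 3. Among the 673 without H3K27ac, 486 (72.2%) had none of the 3 and 48 (7.13%) had all. Of the acetylated sites with no other factor, the strongest were TCEA2 (chr20:64062902-64063270), MAP2K6 (a kinase that activates p38, chr17:69538819-69539165), DIP2C (chr10:329867-330210), a site at chr4:114146948-114147294 far from any gene and one 15.3 kb from UTP25 (chr1:209872757-209873047). The TCEA2 site had 92 MITF fragments in each treatment and an H3K27ac fold enrichment of 19.3 with TGFB1 and 20.98 with vehicle. Its bipartite motif is printed above.

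The 486 members with no peak of any of the 8 other libraries were not weak by fold. Their MITF fold enrichment with TGFB1 had a median of 8.17, against 7.74 at the 667 acetylated in both treatments, while the median number of fragments was 14, against 19. Their summits lay inside a protein-coding gene at 292 (60.1%, 55.7 to 64.3), against 325 of the 667 (48.7%, 45.0 to 52.5), and a median of 32788 bp from a gene end, against 21920 bp. The strongest were a site 75.7 kb from PTPN1 (a tyrosine phosphatase) at chr20:50434564-50434891 with 81 fragments with TGFB1 and 73 with vehicle, and PREX1 (a Rac exchange factor) at chr20:48695767-48696058 with 62 and 71. RAB20 (chr13:110553446-110553779) had 42 and 38, the site near FAM90A1 (chr12:8231077-8231373) 57 and 70, and GNG7 (chr19:2631385-2631908) 36 and 59. These sites were shared by both MITF lists, and no peak of another antibody overlapped them. At the FAM90A1 site, H3K27ac summits nonetheless lay 394 bp (TGFB1) and 328 bp (vehicle) from the MITF summit. At the PTPN1 site an ATF3 summit lay 263 bp away with TGFB1. No summit of another antibody lay as close at PREX1, RAB20 or GNG7.

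Members inside genes and outside them differed in the company they kept. Of the 742 remaining members inside a protein-coding gene, SMAD2/3 with TGFB1 overlapped 19.1% (16.5 to 22.1), against 33.8% (30.4 to 37.4) of the 692 outside. For ATF3 with TGFB1 the shares were 29.5% and 44.4%, for JUNB with TGFB1 40.8% and 52.7%, and for H3K27ac with TGFB1 46.9% and 54.3%. In 4 nearly equal groups by MITF -log10 p with TGFB1, from the weakest up, JUNB with TGFB1 overlapped 44.6%, 40.1%, 48.9% and 52.8%, and H3K27ac 54.9%, 42.3%, 47.8% and 57.1%.

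Distances between summits were taken where peaks overlapped, so the widths of the peaks bound them. At the remaining members the MITF summit was a median of 49.5 bp from the JUNB summit with TGFB1, 54.5 bp from the SMAD2/3 summit and 63.0 bp from the ATF3 summit, and 256 bp from the nearest H3K27ac summit. The overlapped peaks had median widths of 354.5 bp for JUNB, 370 bp for SMAD2/3, 333 bp for ATF3 and 1200.5 bp for H3K27ac, so the longer distance to H3K27ac goes with wider peaks. It lay within 50 bp of the JUNB summit at 336 of 668 sites (50.3%, 46.5 to 54.1) and of the SMAD2/3 summit at 178 of 376 (47.3%, 42.3 to 52.4). At constant gene-end sites these shares were 39.6% (35.3 to 43.9) for JUNB and 28.0% (22.1 to 34.7) for SMAD2/3. MITF peaks there were somewhat longer, with a median of 315 bp against 257 bp at sites with JUNB. The JUNB peaks that members met were strong for their own list: their median fold enrichment was 9.80 with TGFB1, against 5.36 over all JUNB TGFB1 peaks. This was not particular to JUNB. With TGFB1 the medians were 14.3 against 6.28 for H3K27ac, 7.13 against 5.76 for SMAD2/3 and 7.34 against 5.78 for ATF3.

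**Figure D5:**
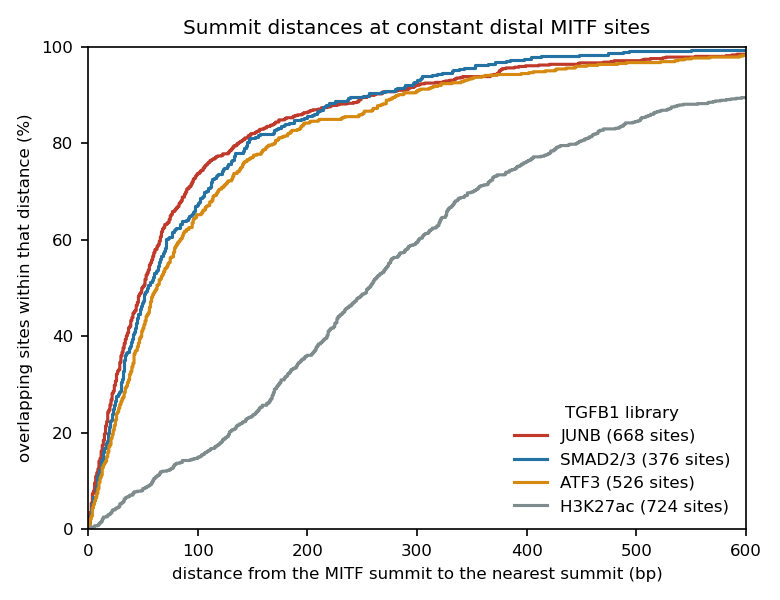
Cumulative share of overlapping sites (percent, y axis) by the distance from the MITF summit to the nearest summit of each TGFB1 library (bp, x axis), for the remaining 1434 members. The curves of JUNB (668 sites), SMAD2/3 (376) and ATF3 (526) pass 50% between 49.5 and 63.0 bp, and that of H3K27ac (724), whose peaks are wider, at 256 bp.

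A member lay in the body of, or within 10 kb of, 982 of 19970 protein-coding genes (4.92%). Lysosome and V-ATPase genes, the classic targets of the MITF and TFE family, had a member at 4 of 45 (8.89%), among them GUSB (a lysosomal hydrolase), MCOLN1 (a lysosomal cation channel) and ATP6V1C1 (a subunit of the proton pump). By contrast, 22 of the same 45 genes (48.9%) had a constant gene-end MITF site within 1 kb, against 6.53% of all protein-coding genes. The member near MCOLN1, inside PNPLA6 (chr19:7535584-7535897), had 21 fragments with TGFB1 and 27 with vehicle, and H3K27ac at 15.8 and 13.4 in fold enrichment. At lysosomal genes the gene-end sites thus stood further above their background than the distal members did.

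Of the autophagy genes 2 of 36 had a member, SQSTM1 and MAP1LC3B (the autophagy receptor p62 and an autophagosome protein), while 10 of 36 had a constant gene-end site. SQSTM1 (chr5:179818857-179819271) was the strongest member of any list, with 91 fragments with TGFB1 and 80 with vehicle, H3K27ac at 26.6 and 31.1, and JUNB at 21.2 and 25.2 in fold enrichment. SMAD2/3 overlapped it with TGFB1 alone, at 8.62. The member near MAP1LC3B, inside FBXO31, lay at the tRNA gene TRM-CAT6-1.

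Pigmentation genes had a member at 2 of 26 (7.69%), GPR143 (the melanosomal receptor of ocular albinism) and MREG (melanoregulin, which acts in melanosome transfer). GPR143 (chrX:9770317-9770561) had 9 fragments with TGFB1 and 14 with vehicle, and MREG (chr2:215967676-215967914) 10 and 12. Neither met a peak of another library. None of the 10 genes on the list of MITF, its TFE relatives and some other transcription factors had a member within 10 kb. TYR, TYRP1, DCT, PMEL and MLANA, also on the pigmentation list, had no member either.

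Of the TGF-beta genes 2 of 35 (5.71%) had a member, among them BHLHE40 (a transcriptional repressor of the clock). BHLHE40 had one on each side. The one at chr3:4986813-4987262 had 34 MITF fragments with TGFB1 and 24 with vehicle, a SMAD2/3 fold enrichment of 34.6 with TGFB1 with no peak in vehicle, and JUNB at 15.4 and 4.93. The one at chr3:4978206-4978636 had 18 fragments with TGFB1 and 10 with vehicle, and SMAD2/3 at 8.95 and 3.8. The nearest SMAD2/3 summits there nonetheless lay 712 bp (TGFB1) and 338 bp (vehicle) from the MITF summit.

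Extracellular matrix and adhesion genes had a member at 5 of 35 (14.3%). The 5 were COL1A1, VIM, TNC, CD44 and TIMP2. TIMP2 (an inhibitor of metalloproteinases) had 41 fragments in each treatment at chr17:78883713-78884154 and 24 with TGFB1 and 25 with vehicle at the E-box of LOC124904068 shown above. Of the AP-1 family 2 of 19 had one (JUNB and FOSB), of the neural crest and dedifferentiation genes 2 of 21 (AXL and EGFR), of the MITF targets of proliferation and survival 2 of 20 (HIF1A and SCD), of housekeeping genes 4 of 18 and of genes of other cell types 1 of 18 (CDH5). The member near FOSB lay at the tRNA gene TRU-TCA1-1. Long genes offer more room for a member, and the counts were not corrected for length.

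Members were mostly alone. Within 10 kb of each other lay 242 members in 75 clusters, and 1393 were single. The largest clusters were 16 members at chr1:228609865-228646268, all at rRNA genes near RHOU, and 13 at chr1:161443176-161470531, all at tRNA or other structural RNA genes near FCGR2A. Another, of 12 members at chrX:115844111-115888498, had no structural RNA gene and no protein-coding gene within 100 kb. All 12 met H3K27ac, SMAD2/3 and ATF3 with TGFB1, and 9 met JUNB, at MITF fold enrichments of 2.73 to 10.2 with TGFB1 and 3.11 to 9.08 with vehicle. These 12 are among the remaining 1434 and among the 376 with SMAD2/3. Whether they lie in repeated sequence was not checked, and how reads that fit several places were treated is not given. They may thus not be separate sites. Around NID1 (the basement membrane protein nidogen) 7 remaining members lay within 100 kb of the gene, more than for any other protein-coding gene, and FRMD8, HSD17B14, MAMSTR, PREX1 and RASIP1 had 5 each. HSD17B14, MAMSTR and RASIP1 lie close together on chromosome 19, so the same members can be counted for each of them.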

How the data were processed

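ChIP-seq peak lists of 10 libraries were used. Reads were aligned with Bowtie to GRCh38 and peaks called with MACS2 2.0, per the submitters' processing notes; the control, duplicate handling and treatment of multiply mapped reads are not given in the sources used here. As deposited by the authors, each peak carries a fold enrichment ratio, a -log10 p, a -log10 q and a score; the score was not used. Peaks are per library, and their values were used within a list or set side by side.

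Identical intervals were counted once and overlap was at least 1 bp. Fragments at each summit were solved from fold enrichment and -log10 p with 1 pseudocount, with all 1635 members giving whole numbers within 0.01 in -log10 p in both MITF lists. Implied depth assumes a genome of 2.7 Gb and the shortest peak as fragment length. Code was checked on simulated data. Genes came from the RefSeq table (GRCh38.p14; 19970 protein-coding genes, without strand). No genome sequence was used, so the motif search planned at all summits was run on RefSeq promoter windows instead. Python 3.11.15, pandas 2.3.3, numpy 2.4.6, scipy 1.17.1 and matplotlib 3.10.9 were used.

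Members and gene lists were chosen with earlier results of these data known. The structural RNA classes, the members set aside, the bipartite motif and single peaks named outside the rule below were chosen after the values were seen. The rule named the 12 members of highest -log10 p, the 5 highest in each of 4 mark combinations, up to 4 per gene list and the 2 sites on each side of the 1 kb limit, each called after the protein-coding gene around its summit or, failing that, the closest one up to 100 kb away. Results for 3 genes of the lists are not reported here.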

Additional observations from a re-analysis of the deposited data

How the results depend on the processing

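No paired analysis was possible because each antibody has 1 library a treatment and the labels number no replicates; no library could be left out. The count of 1635 stayed within 1.5 times under all alternatives (1289 to 1769). The H3K27ac share with TGFB1 was 46.6% with a -log10 q of at least 5 in both MITF lists, 52.6% with a gene-end distance of 500 bp, 47.0% with 5 kb and, in an alternative added after the values were seen, 44.9% also away from promoter starts. With the ends of all genes, the shares with TGFB1 were 46.5% (H3K27ac), 27.1% (SMAD2/3), 37.4% (ATF3) and 46.7% (JUNB), and 52.9% of summits lay inside genes. Without the members set aside, also added then, they were 26.2% (SMAD2/3), 36.7% (ATF3), 46.6% (JUNB) and 51.7% (inside genes). Against only the 5000 strongest peaks of each library they were 10.8%, 21.2%, 8.20% and 14.2% for H3K27ac, SMAD2/3, ATF3 and JUNB with TGFB1, and 10.1%, 10.1% and 15.2% for H3K27ac, ATF3 and JUNB with vehicle, so the order of TGFB1 and vehicle turned for ATF3 and JUNB; the SMAD2/3 vehicle list is shorter than 5000. With the MITF summit inside the other peak, the TGFB1 shares were 32.2%, 26.5%, 35.8% and 46.7%. Listed genes with a member numbered 25, against 14 by gene body only and 39 within 50 kb. The shorter lists and the summit rule allow fewer overlaps by construction; for the other shifts the cause was not tested. The other 41 comparisons of these main results kept within the limits. Depth limits what a missing peak says: the SMAD2/3 vehicle list holds 1247 peaks, and the ATF3 libraries differ in depth.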

Other observations

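Set beside protein-coding genes, the members were spread unevenly over the chromosomes. The shares of all MITF peaks by chromosome were not counted, so whether this is particular to the members was not tested. Chromosome 20 held 80 of the remaining 1434 members (5.58%, 95% Wilson interval 4.51 to 6.89) and 2.69% of protein-coding genes, and 38 of the 486 with no other peak (7.82%, 5.75 to 10.6). Chromosome 19 held 60 of those 486 (12.3%, 9.71 to 15.6) and 7.27% of genes. Chromosome 6 held 27 of the remaining members (1.88%, 1.30 to 2.73) and 5.25% of genes.

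At 9 members in chr21:8986707-9000320, outside the span of rRNA genes, MITF fold enrichment ran from 3.17 to 11.8 with TGFB1 and from 4.21 to 29.98 with vehicle, and no H3K27ac peak overlapped with TGFB1.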
